A study of Mus musculus with 121 samples.

Results

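The mouse tumour mca4 is a mammary carcinoma that the labels describe as having arisen spontaneously in C3H/He mice, and it was carried as a transplant in the hind leg of male C3H/HeMs mice, per the design text of the series, which names the gamma-ray experiment only and gives no age. Its response to a single local dose of 30 Gy of carbon ions was followed here at days 3, 5 and 20. The 8 arrays were chosen by their titles: 2 at each of the 3 days after irradiation and 2 of unirradiated mca4 (0 Gy) from the same carbon-ion experiment. They are 8 of the 40 arrays of the carbon-ion experiment, and the series holds 81 further arrays of a gamma-ray experiment, with 6 transplanted tumours in all.

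Each array measured the total RNA of a dissected tumour, so tumour cells, infiltrating cells and adjoining host tissue are read together. In such bulk samples, fewer cells of a type and less RNA per cell cannot be told apart. No label ties the 2 arrays of a group to separate mice. If both came from 1 mouse, the p-values measure only the spread between these arrays, which may be technical. Days 3, 5 and 20 were each set against the same 2 unirradiated arrays, and the comparisons therefore share them. Unirradiated mca4 was not sampled at later days in the carbon-ion experiment, so the effects of irradiation and of time after transplantation cannot be told apart.

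Carbon ions are heavy charged particles that deposit dense tracks of ionisation and leave clustered DNA breaks. Cells with such damage activate p53, which switches on inhibitors of the cell cycle and of survival, and cycling cells stop making the RNAs of replication and mitosis. Dying tumour cells and cytosolic DNA trigger the interferon response and chemokines, which draw in monocytes and lymphocytes, and fibroblasts then lay down matrix. Well-oxygenated tissue expresses fewer targets of the hypoxia-inducible factor HIF, such as the angiogenic factor Vegfa.

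The arrays gave 1 fluorescence intensity per probe, with no unit and with array medians between 1.06 and 1.073. The 2 arrays of a group correlated across genes at r = 0.9964 (unirradiated), 0.9946 (day 3), 0.9937 (day 5) and 0.9949 (day 20), and the median SD of a gene between them was 0.067, 0.0831, 0.0925 and 0.112 on the log2 scale. Missing values made up 1.21 to 4.92% of an array. The highest intensity on an array lay between 256 and 326, and for genes read close to those values a rise may be cut short by the top of the scale. Epcam, the epithelial adhesion molecule, was read on all arrays of mca4, at 141 and 157 before irradiation, 143 and 151 on day 3, 156 and 135 on day 5 and 185 and 164 on day 20, and it passed the test on none of the days. The epithelial keratins Krt8, Krt19, Krt5 and Krt14 and the adherens protein Cdh1 were also read on every array, and Krt18 had no probe with 1 gene symbol. The markers thus show an epithelial tumour throughout. The proliferation marker Mki67 had 1 probe, which did not pass the filter on missing and dim values.

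Changes are differences of mean log2 intensity (log2 changes, ± SE of the fit), tested with limma over the 40 carbon-ion arrays. A gene is said to have risen or fallen where its p-value, adjusted after Benjamini and Hochberg over all genes, was under 0.05. On day 3, 2575 genes rose and 2730 fell (34.8% of 15254 tested), and on day 5, 3366 rose and 4574 fell (52.0% of 15257). On day 20, 4080 rose and 5865 fell (65.2% of 15255), of which 1756 rose and 1241 fell by at least 2-fold. Between day 5 and day 20, 2283 rose and 2535 fell (31.6% of 15251). Where none of a list is stated to have risen or fallen, none passed limma's test in that direction at an unadjusted p under 0.05 either, unless a count is given. By direction, 16.9, 22.1 and 26.7% of all genes rose on days 3, 5 and 20, and 17.9, 30.0 and 38.4% fell. From day 5 to day 20, 15.0% rose and 16.6% fell. With so many genes past the threshold, a share of a gene list near these percentages is no property of the list. The median change of all genes was -0.05, -0.09 and -0.13 on days 3, 5 and 20 and -0.05 from day 5 to day 20. When the spread was estimated from all arrays of the series, gamma-ray arrays included, the median residual SD of a gene rose from 0.116 to 0.154, and 2599, 5364, 7779 and 2006 genes were called in the 4 comparisons. That fit tested 12950 to 12958 genes in these comparisons, and of the 5305, 7940, 9945 and 4818 genes called above, 4837, 7178, 8924 and 4276 were among those tested in both fits. By direction, 1394, 2172, 3115 and 955 genes rose in that fit in the 4 comparisons, and 1205, 3192, 4664 and 1051 fell. For many lists, counts with this wider spread stand beside the others below, and a list then often has fewer genes tested. The background of those counts is the number of genes that rose or fell in the same fit, and not the percentages above.

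**Figure D1:**
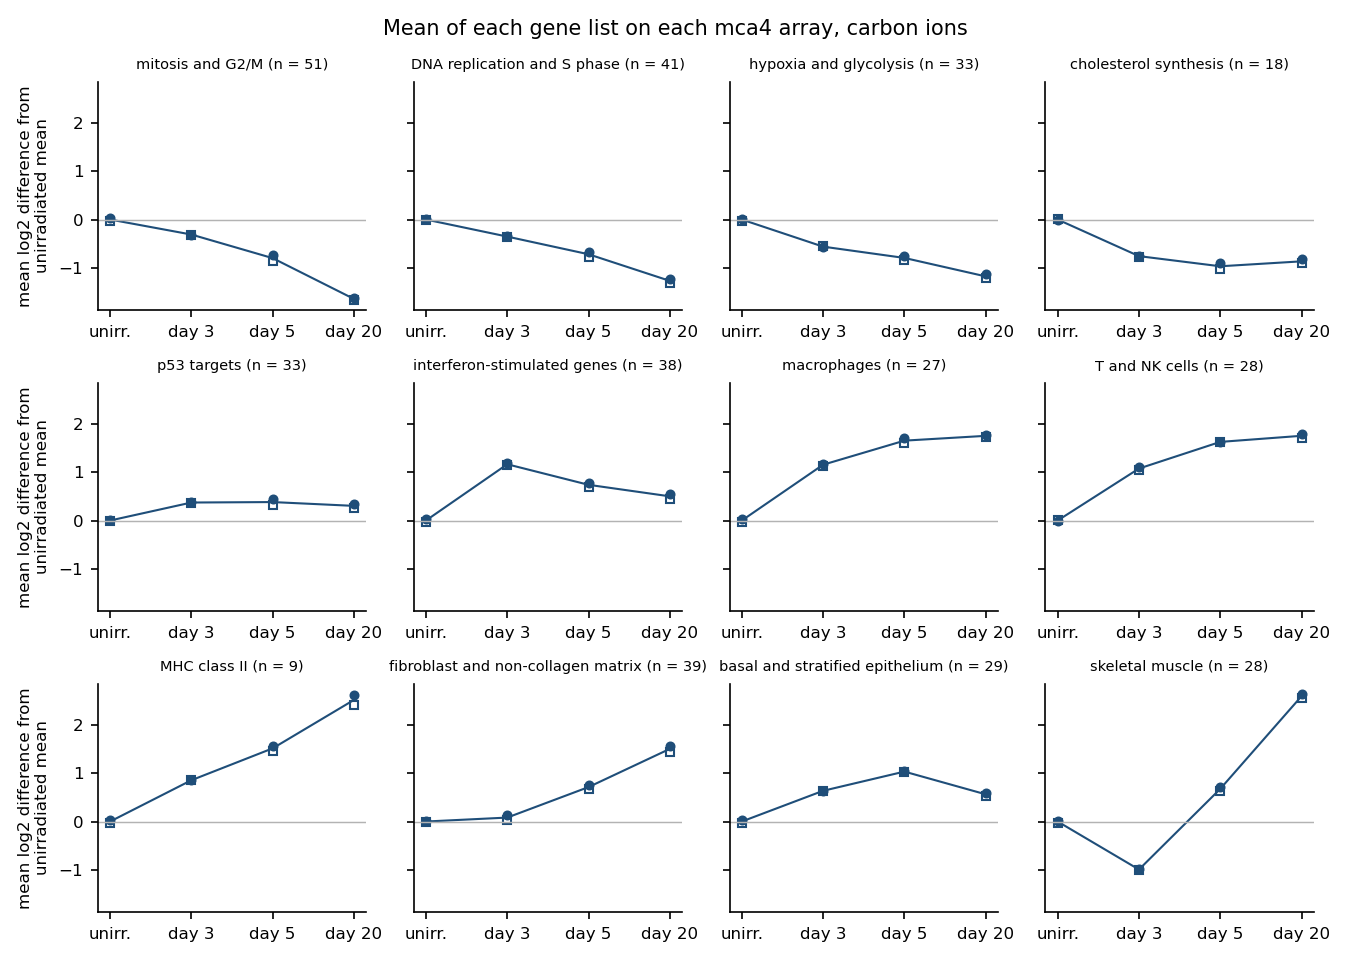
Mean log2 difference from the unirradiated mean over the genes of 12 lists on each mca4 array (circle, replicate 1; open square, replicate 2; line, mean of the 2). Cell-cycle and hypoxia lists lay lower on every later array, the interferon list was highest on day 3 and the T and NK cell, macrophage and MHC class II lists were higher on all irradiated arrays, while the skeletal muscle list was lowest on day 3 and highest on day 20.

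Apol7a, an apolipoprotein L gene with the largest rise on day 3, was read at 1.83 and 1.99 on the unirradiated arrays, 15.7 and 16.9 on day 3, 21.1 and 17.5 on day 5 and 42.9 and 47.3 on day 20. Its groups did not overlap, and it rose by 3.10 on day 3 (adjusted p = 2.25e-22). The GTPase genes Gvin1 and Gbp8, both induced by interferons, rose by 2.51 and 2.51, the surface protein gene Ly6d by 2.41, the serine protease gene Tmprss4 by 2.52 and lactotransferrin (Ltf), an iron-binding protein of milk and of granules, by 2.53. The largest fall was that of the inducible chaperone gene Hspa1a, at 44.4 and 52.3 before and 4.58 and 4.92 on day 3. It stayed low, at 4.11 and 3.94 on day 5 and 4.69 and 4.82 on day 20, and fell by 10.1-fold on day 3 (log2 change -3.34 ± 0.11, adjusted p = 2.03e-20). Cytl1, which encodes a small secreted protein, was read at 89.8 and 86.3 before, 17.4 and 16.1 on day 3, 2.58 and 2.60 on day 5 and 4.31 and 3.58 on day 20. With a log2 change of -5.09 on day 5 it had the largest fall of that day.

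The 3 genes with the largest rises on day 20 had been near the floor of the scale before. Coagulation factor V (F5) was read at 0.151 and 0.171 before irradiation and 0.581 and 0.550 on day 5, and at 19.4 and 21.3 on day 20. Retnla, a secreted product of alternatively activated macrophages and of epithelia, went from 0.348 and 0.192 before and 0.257 and 0.264 on day 5 to 15.4 and 16.2 on day 20, and S100g, a calcium-binding protein gene, from 0.174 and 0.205 before, 0.682 and 0.552 on day 3 and 1.19 on the only day 5 array with a value to 15.5 and 13.8 on day 20. All 3 genes were highest on both day 20 arrays, which did not overlap the earlier ones, and 1 day 3 array of Retnla was set to the floor of 0.0747. The log2 changes from the unirradiated arrays were 6.99 ± 0.24 for F5, 5.93 ± 0.32 for Retnla and 6.28 ± 0.18 for S100g. The glycoprotein hormone subunit gene Gphb5 rose by 5.03, the monocarboxylate transporter gene Slc5a8 by 4.55, the defensin gene Defb1 by 4.61 and the lectin gene Reg3g by 3.798. Cytl1 had the largest fall (-4.49), and the mitochondrial protein gene Mgarp and the Wnt receptor gene Fzd9 were among the next (-3.38 and -3.13).

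**Figure D2:**
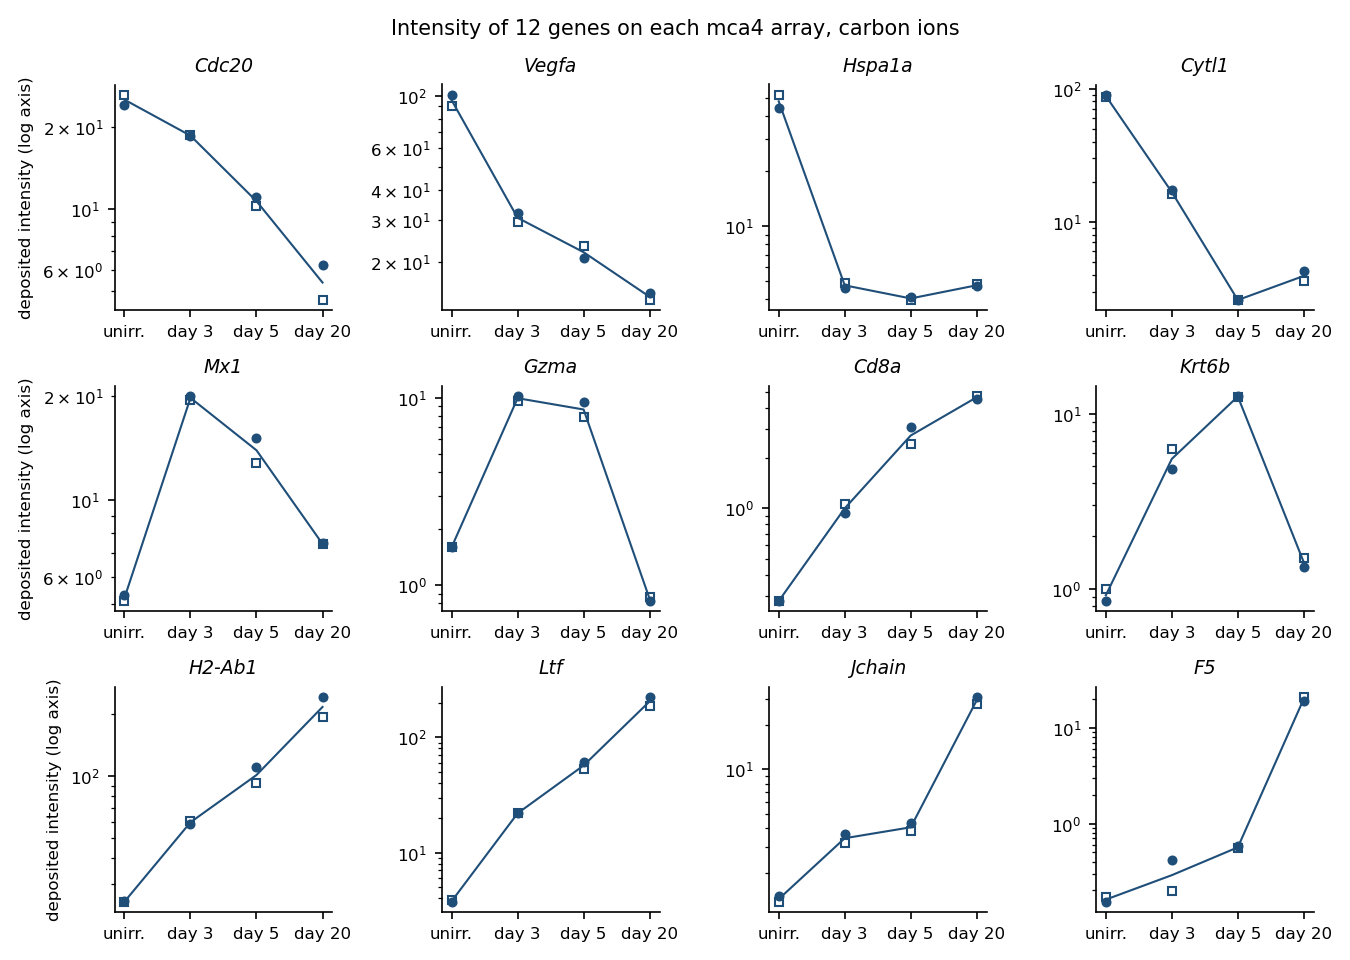
Deposited intensity (log axis) of 12 genes on each mca4 array (circle, replicate 1; open square, replicate 2; line, geometric mean). Cdc20, Vegfa, Hspa1a and Cytl1 were highest on the unirradiated arrays, Mx1 was highest on day 3, Krt6b on day 5, and Cd8a, H2-Ab1, Ltf, Jchain and F5 on day 20, while Gzma was high on days 3 and 5 only.

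Targets of p53 did not move as 1 group. Of the 35 tested, 18 rose and 2 fell on day 3, beside 16.9% of all genes that rose and 17.9% that fell. On day 5, 20 rose and 6 fell (all genes, 22.1 and 30.0%), and on day 20, 18 rose and 10 fell (26.7 and 38.4%). With the wider spread, 16, 19 and 18 rose and 1, 3 and 8 fell. The list medians were 0.31, 0.42 and 0.34. Cdkn1a, the p53-induced inhibitor of cyclin-dependent kinases, was read at 31.3 and 33.9 before, 64.4 and 61.0 on day 3, 59.9 and 59.5 on day 5 and 56.6 and 51.0 on day 20. All irradiated arrays were above the unirradiated ones, and the log2 changes were 0.94, 0.87 and 0.72 (adjusted p = 4.29e-07, 8.2e-07 and 1.01e-05). Pmaip1, which encodes the death-promoting protein Noxa, was read at 3.66 and 3.62 before, 7.99 and 8.29 on day 3, 10.2 and 10.1 on day 5 and 15.1 and 14.6 on day 20 and was highest on day 20 (log2 change 2.03). The death receptor gene Fas rose by 1.36, 1.48 and 1.52, and Btg2, an antiproliferative gene, by 0.95, 0.70 and 0.97.

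Other p53 targets went back or fell. Ccng1, a cyclin gene under p53 control, was read at 15.8 and 16.3 before, 22.9 and 24.2 on day 3, 24.1 and 23.9 on day 5 and 17.1 and 17.9 on day 20. It rose on days 3 and 5 (0.55 and 0.58), and the day 20 value did not pass the test (0.12, adjusted p = 0.277). Mdm2, the ubiquitin ligase that degrades p53, was read at 75.7 and 65.7 before, 84.4 and 83.7 on day 3, 101 and 92.5 on day 5 and 50.9 and 62.5 on day 20. It was highest on day 5 and lowest on day 20, with a log2 change of -0.78 between them (adjusted p = 5.38e-05), and its day 3 value did not pass against the unirradiated arrays (adjusted p = 0.168). The day 5 rise (0.46, adjusted p = 0.00736) and the day 20 fall (-0.32, adjusted p = 0.0454) of Mdm2 did not pass when single arrays were left out: the day 5 value was 0.35 without unirradiated replicate 2 and 0.39 without day 5 replicate 1, and the day 20 value -0.22 without unirradiated replicate 1 and -0.17 without day 20 replicate 1. Trp53inp1, a p53-induced stress gene, had changes of -0.07, -0.27 and -0.28, of which the first did not pass. The other changes of Trp53inp1 passed narrowly (adjusted p = 0.0428 and 0.0319) and not when either unirradiated array was left out. Gadd45a and Ddit4, stress genes that p53 shares with other regulators, fell, with day 20 changes of -1.03 and -1.46.

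Genes of mitosis fell further at each later day. Of the 56 tested, 28 fell on day 3, 55 on day 5 and 56 on day 20, and none rose. Their median change was -0.29, -0.81 and -1.74, and 53 fell again between day 5 and day 20 (median -0.90; 16.6% of all genes fell). Many such genes carry the element CHR near their start, to which the DREAM complex binds when the cycle is stopped, often beside a CCAAT box. The promoters of 4 genes of the list are printed to show where that element lies. Each run is the last 120 bases before the RefSeq start in GRCm38.p6, 5′ to 3′ along the gene, with the CHR letters TTTGAA or their reverse complement in capitals.
Cdc20 (chr4:118437344-118437463, minus strand): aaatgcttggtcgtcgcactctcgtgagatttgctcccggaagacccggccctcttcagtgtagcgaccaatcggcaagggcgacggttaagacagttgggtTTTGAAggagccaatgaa
Kif11 (chr19:37376262-37376381, plus strand): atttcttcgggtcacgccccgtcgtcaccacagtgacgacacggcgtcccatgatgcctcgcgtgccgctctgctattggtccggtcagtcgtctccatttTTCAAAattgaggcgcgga
Ube2c (chr2:164769809-164769928, plus strand): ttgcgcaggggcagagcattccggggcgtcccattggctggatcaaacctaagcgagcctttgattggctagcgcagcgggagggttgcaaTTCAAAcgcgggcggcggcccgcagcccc
Cdk1 (chr10:69352913-69353032, minus strand): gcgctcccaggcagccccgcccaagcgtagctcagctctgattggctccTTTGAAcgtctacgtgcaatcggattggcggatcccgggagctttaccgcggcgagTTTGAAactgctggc
The CHR letters begin 18 bases before the start in Cdc20, 19 in Kif11, 29 in Ube2c and 15 in Cdk1, nearest hit counted. On either strand of the 250 bases before the start, they stand in 38.0% of 50 promoters of the list and in 16.0% of 32851 promoters of all genes. The shorter CCAAT box stands in 72.0% and 33.8% of the same promoters. Such a match describes letters and not binding.

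Cdc20, the activator of the anaphase-promoting complex, was read at 24.2 and 26.4 before, 18.6 and 18.7 on day 3, 11.1 and 10.3 on day 5 and 6.24 and 4.63 on day 20. The values of the 4 groups did not overlap, although the day 3 fall of Cdc20 did not pass with the wider spread. The day 20 change was -2.23 ± 0.10 (adjusted p = 6.41e-19), a 4.70-fold fall. Cdk1, the mitotic kinase, went from 129 and 109.8 before to 73.4 and 87.7 on day 3, 54.8 and 54.8 on day 5 and 33.0 and 27.3 on day 20. Kif11, a spindle motor gene, went from 6.20 and 6.50 to 4.03 and 4.35 on day 3, 3.16 and 3.16 on day 5 and 1.57 and 1.57 on day 20. Both were lower at each later day, with no overlap between the groups. Top2a, the topoisomerase of dividing cells, fell on day 5 (-0.96) and was lower still on day 20 (-1.71). Replication genes moved the same way, 30, 41 and 43 of 44 falling on the 3 days (medians -0.36, -0.79 and -1.37) and 1 rising on each day. Uhrf1, which maintains DNA methylation during replication, had a day 20 change of -2.26, the replication licensing gene Cdc6 one of -2.02 and the S-phase cyclin gene Ccne2 one of -2.04. Of 46 repair and checkpoint genes, 36 fell and 3 rose on day 20 (median -0.82). The checkpoint kinase gene Chek1 and the helicase gene Blm fell by then (-1.72 and -1.94), whereas Polh, the polymerase that copies past DNA lesions, went from 0.846 and 0.884 before to 3.32 and 4.50 on day 20 and rose by 2.16. Under the wider spread, 8 of 55 mitosis genes, 12 of 44 replication genes and 11 of 41 repair genes fell on day 3, when 20 of the repair genes had fallen without it, and 55 mitosis genes fell on day 20.

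Genes of the hypoxia response were lower from day 3 on. Of 36 tested, 29 fell on day 3, 29 on day 5 and 32 on day 20 (medians -0.55, -0.89 and -1.26), and 2, 2 and 3 rose. HIF binds the core letters ACGTG, and the 120 bases before the start of 3 genes of the list are printed with those letters, or their reverse complement, in capitals (RefSeq, GRCm38.p6).
Car9 (chr4:43506906-43507025, plus strand): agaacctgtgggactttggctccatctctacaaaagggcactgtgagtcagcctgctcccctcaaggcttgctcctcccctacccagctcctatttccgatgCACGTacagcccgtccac
Slc2a1 (chr4:119108625-119108744, plus strand): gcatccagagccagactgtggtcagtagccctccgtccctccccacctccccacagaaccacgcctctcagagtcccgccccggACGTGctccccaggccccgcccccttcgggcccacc
Bnip3 (chr7:138909507-138909626, minus strand): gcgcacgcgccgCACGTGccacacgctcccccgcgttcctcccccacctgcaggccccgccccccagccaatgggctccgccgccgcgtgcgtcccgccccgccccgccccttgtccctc
The core begins 18 bases before the start in Car9 and 36 in Slc2a1, and in Bnip3 2 overlapping matches on opposite strands share 1 site. It stands in 51.2% of 41 promoters of the list and in 16.6% of those of all genes, in the same window and on either strand.

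Vegfa was read at 101 and 90.8 on the unirradiated arrays, 32.1 and 29.3 on day 3, 20.7 and 23.3 on day 5 and 14.8 and 13.8 on day 20. Its groups did not overlap, and it was 3.12-fold lower on day 3 (-1.64 ± 0.14, adjusted p = 1.4e-11) and 6.69-fold lower on day 20. The vasodilator peptide gene Adm, the prolyl hydroxylase gene Egln3, itself a HIF target, and the carbonic anhydrase gene Car9 had day 20 changes of -2.67, -2.53 and -2.32. The mitophagy gene Bnip3 was read at 54.9 and 54.1 before and 11.2 and 11.2 on day 20, and the glucose transporter gene Slc2a1 at 30.8 and 36.2 and 8.46 and 11.3. Against the direction of the list, the glycolytic regulator Pfkfb4 rose, from 6.93 and 7.97 to 34.4 and 29.1 on day 20, and so did Angptl4, an inhibitor of lipoprotein lipase, from 11.8 and 12.1 to 46.1 and 46.9 on day 5. The hormone gene Stc2, which hypoxia induces, had a day 20 change of -2.45, for which 1 of the 2 arrays had no value. By the wider spread, 19 of the 36 genes fell on day 3.

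Cholesterol synthesis genes were lower from day 3 on. Of 20 genes of the sterol pathway, 16 fell on day 3, 19 on day 5 and 16 on day 20, and none rose (medians -0.80, -1.11 and -0.92). Idi1, the isopentenyl diphosphate isomerase, was read at 7.11 and 6.78 before, 2.39 and 2.53 on day 3, 2.05 and 1.78 on day 5 and 2.43 and 2.03 on day 20, lower on all irradiated arrays. The squalene epoxidase gene Sqle fell on each day (-1.16, -1.73 and -2.03), and so did Srebf2, the transcription factor that drives the pathway (-0.77, -1.05 and -1.29). Between day 5 and day 20, 3 of the cholesterol genes rose and none fell by limma, with 2 lower at an unadjusted p under 0.05 (15.0% of all genes rose and 16.6% fell). All 3 of these calls were lost with the wider spread, where 2 of 19 were higher and none lower at an unadjusted p under 0.05. Of 23 heat shock genes, 9, 13 and 14 fell on the 3 days, and 1 rose on day 5 and 3 on day 20. With the wider spread, 8, 11 and 13 of the heat shock genes fell on the 3 days and 3 rose on day 20. Among all genes, 17.9, 30.0 and 38.4% fell on the 3 days in the main fit, for both the cholesterol and the heat shock list. Beside Hspa1a, the mitochondrial chaperonin gene Hspd1 went from 136 and 142 to 55.9 and 46.0 on day 20, while the small heat shock gene Cryab, abundant in muscle, rose by 2.18 on day 20.

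Interferon-stimulated genes rose most on day 3. Of 39 tested, 38 rose on day 3, 35 on day 5 and 24 on day 20, with medians of 1.12, 0.69 and 0.41, and 3 fell on day 20. Interferon receptors act through STAT and IRF factors on the response element ISRE, whose core is a pair of GAAA runs with any 2 bases between. The 120 bases before the start of 4 of these genes are printed with that core, or its reverse complement, in capitals (RefSeq, GRCm38.p6).
Isg15 (chr4:156200819-156200938, minus strand): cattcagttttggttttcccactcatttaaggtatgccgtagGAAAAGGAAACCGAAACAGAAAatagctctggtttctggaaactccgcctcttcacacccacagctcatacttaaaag
Trim30a (chr7:104465194-104465313, minus strand): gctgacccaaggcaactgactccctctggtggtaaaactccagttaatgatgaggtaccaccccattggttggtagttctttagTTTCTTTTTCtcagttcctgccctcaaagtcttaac
Igtp (chr11:58199436-58199555, plus strand): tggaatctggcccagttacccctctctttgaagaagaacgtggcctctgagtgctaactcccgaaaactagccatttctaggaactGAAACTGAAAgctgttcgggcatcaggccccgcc
Gbp2 (chr3:142620543-142620662, plus strand): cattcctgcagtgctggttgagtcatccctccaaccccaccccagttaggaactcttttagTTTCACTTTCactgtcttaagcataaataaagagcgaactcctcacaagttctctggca
Isg15 holds 3 overlapping copies, and the other promoters 1 each, 36 bases before the start in Trim30a, 34 in Igtp and 59 in Gbp2. The core stands in 37.1% of 35 promoters of the list and in 2.98% of those of all genes.

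Mx1, an antiviral GTPase, was read at 5.32 and 5.09 before, 20.1 and 19.5 on day 3, 15.2 and 12.8 on day 5 and 7.49 and 7.44 on day 20. It was highest on day 3 (1.93 ± 0.10, adjusted p = 3.21e-16), with a change of -0.90 from day 5 to day 20. Cxcl10, a chemokine that draws T cells, was read at 31.8 and 28.4 before, 72.1 and 87.2 on day 3, 37.5 and 35.6 on day 5 and 29.4 and 27.4 on day 20, and its 2 day 3 values stood above all the others (log2 change 1.40). Others stayed up: Trim30a, an interferon-induced ubiquitin ligase gene, went from 13.0 and 13.0 before to 50.8 and 45.1 on day 3, 43.6 and 41.8 on day 5 and 39.0 and 35.0 on day 20. The guanylate-binding protein gene Gbp6, a target of interferon-gamma, was read at 3.97 and 3.97 before, 13.7 and 14.3 on day 3, 7.96 and 7.59 on day 5 and 12.5 and 12.4 on day 20. It was thus lower on day 5 than on days 3 and 20, and its rise from day 5 to day 20 was 0.68. Igtp, another such GTPase gene, ran alike (1.57, 0.78 and 1.26 against the unirradiated arrays, and 0.49 from day 5 to day 20). Neither rise from day 5 to day 20 passed with the wider spread, nor did the day 20 change of Mx1 (0.52). Isg15, a ubiquitin-like antiviral protein gene, rose by 0.82 on day 3. On the wider spread, 36, 25 and 16 of the 39 interferon-stimulated genes rose on the 3 days and 2 fell from day 5 to day 20.

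Of 16 genes of MHC class I and peptide loading, 12, 11 and 11 rose on the 3 days (medians 0.60, 0.36 and 0.39), among them the peptide transporter gene Tap1 (1.23, 0.70 and 0.95). With the wider spread, 9, 5 and 7 of 15 rose. MHC class II genes, which present antigen to CD4 T cells, kept rising to day 20. Of 10 tested, 7 rose on day 3, 9 on day 5 and 9 on day 20, 1 fell on days 3 and 5, and 10 rose between days 5 and 20 (medians 0.87, 1.59, 2.54 and 0.94; 15.0% of all genes rose in the last comparison). H2-Ab1 was read at 24.8 and 24.6 before, 58.8 and 60.8 on day 3, 111 and 92.3 on day 5 and 242 and 193 on day 20, the last near the top of the scale. Ciita, the transactivator of the class II genes, went from 3.77 and 3.58 before to 9.86 and 9.58 on day 3, 10 and 9.05 on day 5 and 22.4 and 20.7 on day 20, a rise of 2.55 ± 0.10 on day 20. H2-Ob, a class II gene of B cells, did not follow and had a day 20 change of 0.21 (adjusted p = 0.136). Under the wider spread, 3, 9 and 9 of 10 class II genes rose on the 3 days and 5 from day 5 to day 20, H2-Ab1 not among the last.

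Macrophage markers rose on every day. Of 29 tested, 27 rose on day 3, 29 on day 5 and 27 on day 20, and none fell (medians 1.24, 1.88 and 2.20). With the wider spread, 19, 25 and 22 of 27 rose and none fell. The mannose receptor gene Mrc1 was read at 1.17 and 1.21 before, 2.30 and 2.14 on day 3, 10.7 and 8.57 on day 5 and 9.98 and 9.77 on day 20, with most of its rise between days 3 and 5. The lysozyme gene Lyz2 rose to 213 and 188 on day 20 from 29.5 and 29.4, and Mpeg1, which encodes a pore-forming protein of phagocytes, from 2.67 and 2.54 to 15.9 and 19.2. Not every member stayed up. Chil3, a chitinase-like protein of activated macrophages and neutrophils, was read at 0.364 and 0.362 before, 2.02 and 2.18 on day 3, 1.23 and 1.14 on day 5 and 0.364 and 0.360 on day 20. It rose on days 3 and 5 (2.53 and 1.70) and its day 20 values overlapped the unirradiated ones (-0.01, adjusted p = 0.972). The folate receptor gene Folr2, known from resident macrophages, peaked on day 5 at 10.7 and 11.0, against 1.14 and 1.15 before and 2.22 and 2.07 on day 20 (-2.34 from day 5 to day 20). Complement genes, which macrophages and other cells express, were higher too, 13, 15 and 15 of 16 rising on the 3 days (medians 1.32, 1.83 and 2.29). With the wider spread, 13 of 14 complement genes rose on each day. Serping1, the inhibitor of C1, rose by 1.74, 1.59 and 2.28, and clusterin (Clu) by 1.57, 2.02 and 3.21.

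Chemokine and neutrophil genes moved in both directions. Of 35 chemokine genes, 20, 22 and 22 rose and 2, 4 and 7 fell on the 3 days. Among all genes, 16.9, 22.1 and 26.7% rose and 17.9, 30.0 and 38.4% fell. The monocyte attractants Ccl2 and Ccl7 rose by 1.99 and 2.27 on day 3, and Ccl8 by 1.995, 2.90 and 3.24, from 17.0 and 18.4 to 172 and 163. Cxcl12, the stromal chemokine that binds Cxcr4, was read at 6.17 and 6.41 before, 3.62 and 2.70 on day 3, 1.61 and 1.53 on day 5 and 1.62 and 1.26 on day 20, lower on all irradiated arrays. The neutrophil attractants Cxcl1 and Cxcl2 fell on day 20 (-1.22 and -1.78). Of 23 genes of neutrophils and acute inflammation, 12 rose and 8 fell on day 20. The share that fell on day 20 was not above that of all genes in either list, so these falls are no property of the lists. Between days 5 and 20, 7 of the neutrophil genes rose and 13 fell (median -0.47), beside 15.0 and 16.6% of all genes. S100a9, a subunit of calprotectin, which neutrophils hold in bulk, was read at 15.3 and 17.8 before, 16.7 and 14.7 on day 5 and 7.46 and 7.18 on day 20 (-1.18). In the same list Ltf went the other way, from 3.72 and 3.85 before to 21.9 and 22.0 on day 3, 60.6 and 53.6 on day 5 and 225 and 187 on day 20, a 54.2-fold rise by day 20, and the cytokine gene Il1b rose by 1.75. By the wider spread, 13, 11 and 16 of 31 chemokine genes rose on the 3 days, and of 18 neutrophil genes 6 rose and 4 fell on day 20, while 2 rose and 6 fell between days 5 and 20.

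Genes of T and NK cells rose by day 3, and some of them fell after day 5. Of 29 T and NK cell genes, 22 rose on day 3, 24 on day 5 and 22 on day 20, while 1, 2 and 3 fell (medians 1.22, 2.02 and 1.55). Cd8a, the co-receptor of cytotoxic T cells, was read at 0.279 and 0.278 before, 0.939 and 1.06 on day 3, 3.07 and 2.43 on day 5 and 4.54 and 4.72 on day 20. The groups did not overlap, and the rise was 4.06 ± 0.13 on day 20 (adjusted p = 4.82e-22). The T cell receptor chain gene Cd3g went from 1.03 and 0.884 to 8.06 and 7.57 on day 5 and 16.6 and 15.6 on day 20, and the cytotoxic granule gene Nkg7 from 0.717 and 0.749 to 9.45 and 8.12. On the wider spread, in which Cd8a had no value, 10 of 22 rose on day 3, 18 on day 5 and 15 on day 20.

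Gzma, a granzyme of cytotoxic lymphocytes, took another course. It was read at 1.59 and 1.60 before, 10.2 and 9.65 on day 3, 9.49 and 7.89 on day 5 and 0.823 and 0.870 on day 20, high on days 3 and 5 and lowest on day 20, with a change of -3.35 ± 0.11 from day 5 to day 20 (adjusted p = 1.14e-20). In all, 13 of the 29 T and NK cell genes rose and 4 fell in that interval, beside 15.0 and 16.6% of all genes. With the wider spread, 1 of 22 rose and 3 fell. The perforin gene Prf1, whose product acts with granzymes, stayed up, at 0.299 and 0.282 before and 2.20 and 2.17 on day 20.

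Some markers of antibody-secreting cells rose steeply by day 20. Jchain, which links IgM and IgA subunits, was read at 1.39 and 1.26 before, 3.66 and 3.19 on day 3, 4.32 and 3.802 on day 5 and 31.1 and 27.9 on day 20, and its day 20 values stood far above all others (4.48 ± 0.10 against the unirradiated arrays). A second Jchain probe rose less, by 2.97 on day 20 and by 1.65 from day 5 to day 20. The immunoglobulin kappa segment gene Igkv4-68 went from 0.812 and 0.705 to 20.9 and 18.6, and probes of such segments can also bind the RNA of close relatives. The plasma cell chaperone gene Mzb1 rose by 2.63. Of 15 genes of B and plasma cells, 9 rose and 4 fell on day 20 (median 0.82), beside 26.7 and 38.4% of all genes. The B cell marker gene Ms4a1 was read at 0.129 and 0.135 before and 0.174 and 0.136 on day 20. With the wider spread, the day 3 and day 5 rises of Jchain did not pass, nor its rise from day 5 to day 20, while that against the unirradiated arrays did.

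Keratins of basal and wound-activated epithelium rose, some through day 20 and some only until day 5. Krt14, a keratin of basal and myoepithelial cells, was read at 12.2 and 12.8 before, 48.2 and 47.9 on day 3, 91.7 and 90.7 on day 5 and 65.9 and 55.0 on day 20. Its partner Krt5 was read at 3.05 and 2.82 before, 10.4 and 9.15 on day 3, 24.5 and 19.1 on day 5 and 26.6 and 21.2 on day 20. Both stayed above the unirradiated arrays throughout, with day 20 changes of 2.27 and 3.02. Krt6b, a keratin of activated and wounded epithelium, was read at 0.856 and 0.998 before, 4.82 and 6.32 on day 3, 12.6 and 12.4 on day 5 and 1.34 and 1.51 on day 20. It peaked on day 5 (3.76 ± 0.23) and then lost most of that rise (-3.14 from day 5 to day 20, adjusted p = 1.24e-12). Krt16 and the cornified envelope gene Sprr1a also peaked on day 5, with changes of -1.92 and -2.41 from day 5 to day 20. Of 31 genes of basal and stratified epithelium, 23 rose and 6 fell on day 5, beside 22.1 and 30.0% of all genes. On day 20, 18 rose and 8 fell, beside 26.7 and 38.4% (medians 0.81 on day 5 and 0.51 on day 20). Under the wider spread, in which Krt6b had no value, 13 of 25 rose on day 5 and 12 on day 20, and 2 and 5 fell.

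Luminal and milk genes had no common direction. Of 35 tested, 13 rose and 11 fell on day 20 (all genes, 26.7 and 38.4%), with a median of 0.02. Krt19, a keratin of simple epithelium, rose by 0.80 by day 20, from 45.7 and 42.7 to 79.8 and 74.2. Csn1s1, a milk casein gene, was read at 4.68 and 4.75 before, 10.6 and 9.94 on day 3, 9.43 and 8.79 on day 5 and 3.03 and 2.69 on day 20, so that it was raised early and lowest at the end (-1.67 from day 5 to day 20). Elf5, a transcription factor of milk-secreting cells, fell by day 20, from 18.0 and 16.7 to 9.00 and 8.27 (-1.004).

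Genes of fibroblasts and matrix rose mostly after day 3. Of 41 tested, 13 rose on day 3, 24 on day 5 and 38 on day 20, while 7, 6 and 1 fell, with medians of 0.13, 0.68 and 1.33. Decorin (Dcn), a proteoglycan that binds collagen, was read at 4.16 and 4.32 before, 5.82 and 5.50 on day 3, 15.9 and 17.2 on day 5 and 34.1 and 35.0 on day 20. Its rise on day 20 was 8.15-fold, and the groups did not overlap. Periostin (Postn) went from 15.6 and 16.7 before and 18.1 and 17.2 on day 3 to 31.4 and 29.8 on day 5 and 78.3 and 68.5 on day 20. Collagen chains were split by member, 11 rising and 6 falling of 19 on day 20 (median 0.90), beside 26.7 and 38.4% of all genes. The chain gene Col3a1 rose to 208 and 163 on day 20 from 58.7 and 53.6, whereas Col8a2, a short chain of basement membranes, was at 15.6 and 15.6 before and 2.53 and 2.97 on day 3 and fell by 5.70-fold. By the wider spread, 6, 15 and 34 of 37 fibroblast genes rose on the 3 days, Dcn not on day 3, and 1 fell on days 5 and 20 and none on day 3 by limma (3 at an unadjusted p under 0.05).

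Matrix-degrading enzymes followed different courses. Of 19 metalloproteinase and inhibitor genes, 13, 15 and 17 rose on the 3 days and 2 fell on day 3. Mmp12, the elastase of macrophages, was read at 3.27 and 3.05 before, 13.5 and 13.5 on day 3, 14.5 and 12.6 on day 5 and 10.9 and 11.4 on day 20 and was near its highest level from day 3 on. Mmp3, stromelysin, was read at 1.79 and 1.73 before, 2.67 and 2.50 on day 3, 4.37 and 3.96 on day 5 and 15.4 and 14.6 on day 20, with most of its rise after day 5 (1.85). Mmp9, a gelatinase, was higher on days 3 and 5 (1.19 and 1.70) and fell again after day 5 (-1.29). On the wider spread, 8, 15 and 14 of 18 rose on the 3 days.

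Endothelial genes did not share a direction. Of 26 tested, 7, 8 and 14 rose and 3, 4 and 5 fell on the 3 days. Among all genes, 16.9, 22.1 and 26.7% rose and 17.9, 30.0 and 38.4% fell. The day 20 median of the endothelial genes was 0.27. The clotting factor gene Vwf was read at 2.003 and 1.89 before, 4.71 and 4.80 on day 3, 6.65 and 5.90 on day 5 and 9.11 and 7.46 on day 20, and Kdr, the main receptor of Vegfa, at 5.25 and 5.09 before and 9.61 and 8.63 on day 20, a rise of 0.82. Esm1, which tip cells secrete under Vegfa, went the other way, from 1.79 and 1.81 to 0.843 and 0.832. With the wider spread, 1, 3 and 7 of 24 endothelial genes rose on the 3 days, and 2 fell on day 5 and 4 on day 20.

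Skeletal muscle genes were lower on day 3 and higher on day 20. The tumours grew in the leg, and muscle RNA of the host can reach such a sample. Of 34 muscle genes, 25 fell and none rose on day 3 by limma, 26 rose and 2 fell on day 5, and all 34 rose on day 20 (medians -0.86, 0.82 and 2.80). Parvalbumin (Pvalb), a calcium buffer of fast fibres, was read at 5.93 and 6.68 before, 0.978 and 0.903 on day 3, 13.4 and 13.1 on day 5 and 46.8 and 43.2 on day 20. The fast troponin gene Tnnc2 ran from 16.2 and 14.7 to 2.86 and 2.72 on day 3, 29.1 and 23.4 on day 5 and 129 and 95.5 on day 20. Both genes were lowest on both day 3 arrays. Myl2, a myosin light chain of slow fibres, took another course and was read at 0.372 and 0.433 before, 0.321 and 0.25 on day 3, 0.324 and 0.363 on day 5 and 7.12 and 6.86 on day 20. It was high on both day 20 arrays only. Myh3, the embryonic myosin, had values of 0.428 and 0.295 before and 2.62 and 2.34 on day 20.

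These muscle changes depend on which arrays give the spread. Over all arrays of the series, the median residual SD of the muscle genes was 0.86, against 0.109 over the carbon-ion arrays. Under the wider spread, none of 33 passed limma's test on day 3 (3 fell at an unadjusted p under 0.05), 1 rose on day 5, 31 on day 20 and 11 from day 5 to day 20. Pvalb passed on none of the 3 days. The part of muscle carried over at dissection was not tested.

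**Figure D3:**
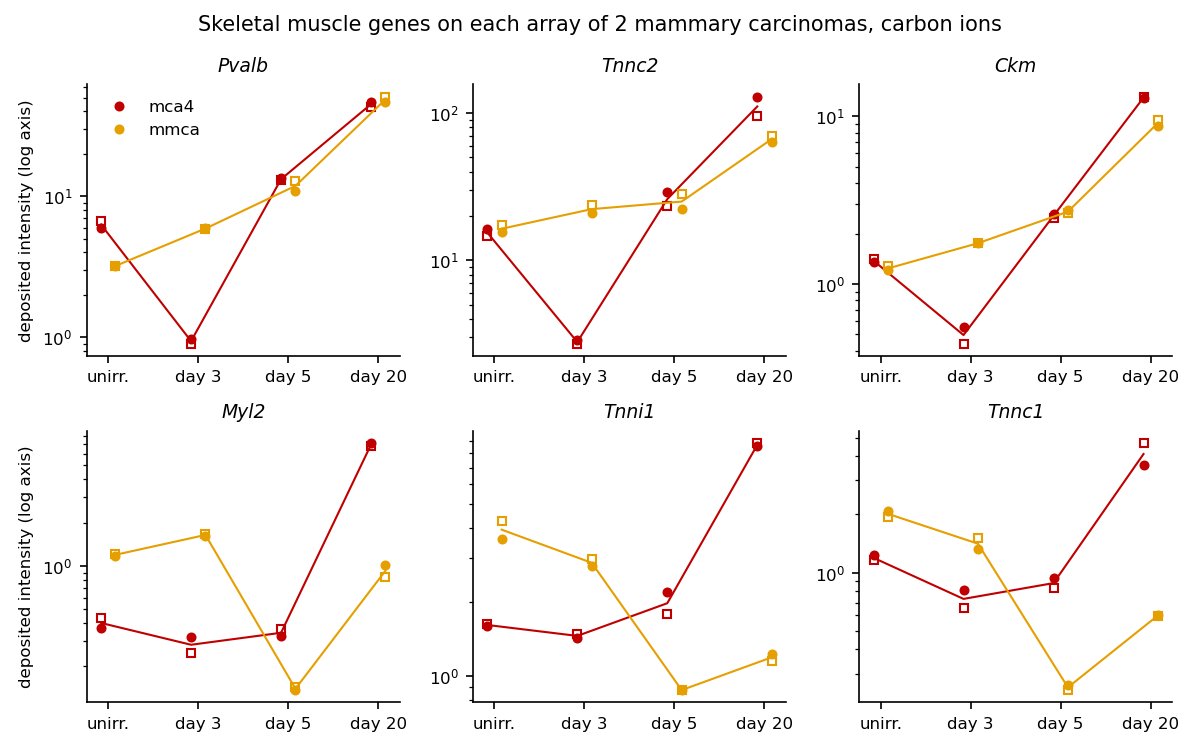
Deposited intensity (log axis) of 6 muscle genes on each array of mca4 and of mmca, another mammary carcinoma (circle, replicate 1; open square, replicate 2; line, geometric mean). The fast-fibre genes Pvalb and Tnnc2 and the muscle gene Ckm were higher on day 20 than before in both tumours, after a low on day 3 in mca4, while Myl2, Tnni1 and Tnnc1 were highest on day 20 in mca4 and lower than unirradiated on days 5 and 20 in mmca.

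Between day 5 and day 20 the interferon-stimulated genes came down and the cell cycle fell further. Of the 39 interferon-stimulated genes, 4 rose and 19 fell (15.0% of all genes rose and 16.6% fell), with a median of -0.29. With the wider spread, 2 fell and none rose by limma, with 6 lower and 1 higher at an unadjusted p under 0.05. All 34 muscle genes rose, 11 of 33 with the wider spread. Other genes that fell were Krt6b, Gzma and Folr2, given above, Clca1, a secreted protein of mucosal epithelium (-2.56), and the chemokine gene Ppbp of platelets (-2.31). Among those that rose, F5 had a change of 5.17 ± 0.24, Retnla one of 5.92, Alox12e, a lipoxygenase gene of the skin barrier, one of 3.22 and Reg3g one of 2.91.

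The tumour mmca is a second mammary carcinoma of C3H/He mice that received the same dose in the same experiment, with 2 arrays at each of the same times. Whether the change from unirradiated differed between mca4 and mmca was tested as a difference of differences, with the unirradiated arrays of each tumour as its own baseline. On day 3, 1490 genes differed, 794 with a higher and 696 with a lower change in mca4 (9.77% of those tested). On day 5, 1117 differed (699 and 418; 7.32%), and on day 20, 1415 (819 and 596; 9.28%). These splits depend on the scaling: after quantile normalization, the share with a higher change in mca4 went from 53.3 to 39.9% on day 3, from 62.6 to 51.1% on day 5 and from 57.9 to 49.0% on day 20. By the wider spread 38, 21 and 37 genes differed. Within the 12910, 12911 and 12915 genes tested in both fits, 1389, 1009 and 1317 differed with the carbon-ion arrays and 37, 20 and 36 with all arrays.

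Interferon-stimulated and T and NK cell genes had the higher change in mca4 on day 3. Batf2, an interferon-induced transcription factor, was read in mca4 at 8.01 and 6.65 before and 26.6 and 24.01 on day 3, and in mmca at 11.7 and 11.3 before and 6.97 and 8.17 on day 3. The difference of the changes was 2.40 ± 0.15 (adjusted p = 3.39e-13). Gbp6 differed by 1.70, from 3.97 and 3.97 to 13.7 and 14.3 in mca4 and from 7.57 and 7.97 to 8.35 and 8.45 in mmca. Cd8a, at 0.486 and 0.574 before and 0.312 and 0.304 on day 3 in mmca, differed by 2.62. H2-Ab1, at 25.7 and 31.2 before and 15.0 and 15.4 on day 3 in mmca, differed by 2.17. All 4 genes were thus far higher on day 3 than before in mca4 and near or under their earlier level in mmca. Of the 39 interferon-stimulated genes, 22 had a higher and none a lower change in mca4 on day 3 by limma, and of the 29 T and NK cell genes 16 and none (5.21% of all genes had a higher and 4.56% a lower change). On the wider spread the call was lost for all but 1 of the interferon-stimulated genes and for all T and NK cell genes, with 16 of 39 and 4 of 22 higher at an unadjusted p under 0.05. Pvalb and Tnnt3 had the lower change in mca4 (-3.62 and -2.77). Batf2 and Gbp6 also passed with the wider spread. H2-Ab1, Pvalb and Tnnt3 did not, and Cd8a had no value there.

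Genes of slow muscle fibres were among those that differed most on day 20. Myl2 was read in mmca at 1.17 and 1.22 before, 0.137 and 0.143 on day 5 and 1.02 and 0.842 on day 20, so that its change was 4.49 ± 0.21 higher in mca4 on day 20 (adjusted p = 4.12e-16). For Tnni1, the slow troponin I, the difference was 4.15. Gzma had the higher change in mca4 on day 5 (1.74) and Ltf the lower (-1.59, with 2.09 and 2.29 before and 93.4 and 105 on day 5 in mmca). On day 20 Gzmf, a granzyme, and S100a9 had the lower change in mca4 (-3.03 and -1.92). Gzmf was read in mca4 at 1.39 and 1.34 before and 1.35 and 1.297 on day 20, and in mmca at 0.281 and 0.303 before and 2.20 and 2.44 on day 20. With the wider spread, Myl2 and Tnni1 differed on day 20, while Gzma, Ltf, Gzmf and S100a9 did not pass. The fall of the mitosis genes was smaller in mca4 on day 3, when 18 of 56 had a higher and none a lower change by limma (medians, -0.29 in mca4 and -0.70 in mmca), and with the wider spread none passed, with 17 higher at an unadjusted p under 0.05. On day 20 the medians were -1.74 and -1.93. T and NK cell genes had the higher change in mca4 on day 5 as well (16 of 29, beside 4.58% of all genes, with none lower beside 2.74%) and on day 20 (18, beside 5.37%, with none lower beside 3.91% and 1 lower at an unadjusted p under 0.05), and none passed with the wider spread (3 and 5 of 22 higher at an unadjusted p under 0.05).

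**Figure D4:**
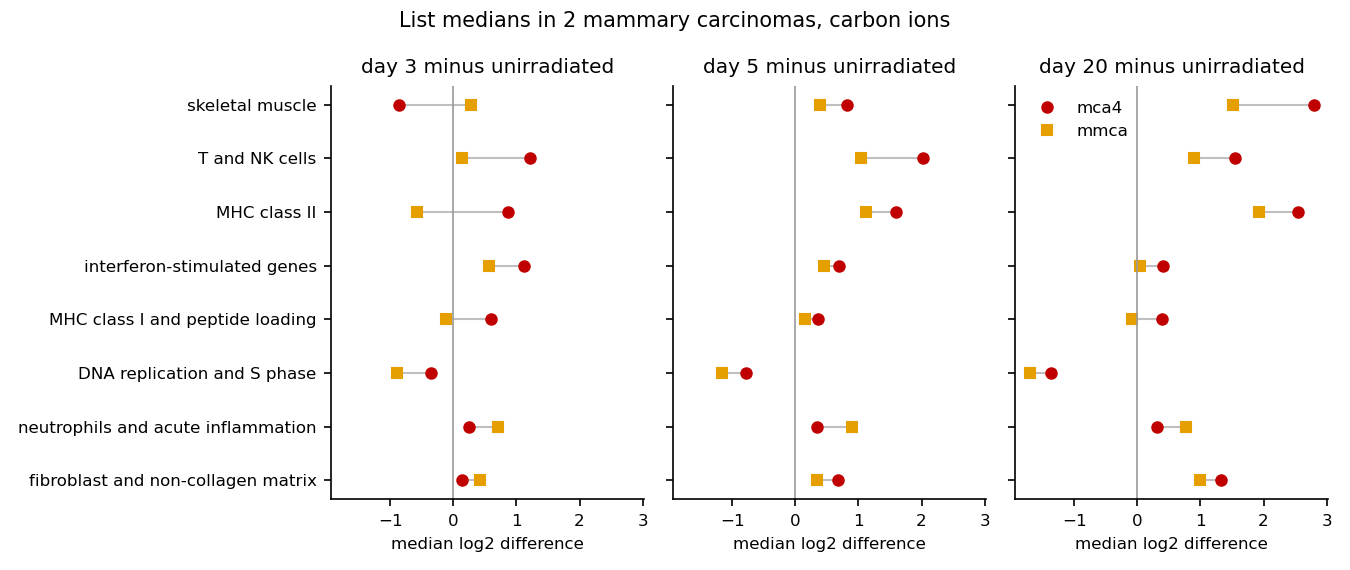
Median log2 change from the unirradiated arrays over the genes of 8 lists, on days 3, 5 and 20, in mca4 and in mmca. T and NK cell and interferon-stimulated genes had the higher median in mca4 on all 3 days, the skeletal muscle median was lower in mca4 on day 3 and higher on day 20, and the DNA replication medians were below 0 in both tumours.

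The change from day 5 to day 20 was also set against the mean of the same change in the other 4 tumours sampled at both times: mmca, the fibrosarcoma nfsa, a further fibrosarcoma that arose after irradiation, and the squamous cell carcinoma nrs1. There 2594 genes had a higher and 3966 a lower change in mca4 (43.0% of those tested). The 4 tumours differ among themselves, so their mean stands for no single one. Of the 56 mitosis genes, 55 had the lower change in mca4 and none the higher by limma (26.0 and 17.0% of all genes). The median change of mitosis genes was -0.90 in mca4 and -0.83 in mmca, against 0.80 in the fibrosarcoma that arose after irradiation, 0.85 in nfsa and 0.86 in nrs1, so that both mammary carcinomas stood below the other 3 tumours. Of the 36 hypoxia genes, 33 had the lower and 1 the higher change, with Adm (-3.08) and Car9 (-2.82) among the genes with the largest differences. The hypoxia median was -0.44 in mca4 and -0.20 in mmca. It was 1.33 in the fibrosarcoma that arose after irradiation, 1.44 in nfsa and 0.66 in nrs1, so these 3 tumours rose. Mgarp, which is not in the hypoxia list, differed by -3.76. Cxcl3, a neutrophil attractant, differed by -3.18. On the higher side stood Myl2 (4.97), F5 (3.90 ± 0.27, adjusted p = 3.42e-13), Gbp8 (3.01) and the NK receptor gene Klra3 (2.83). Of these, only Myl2 was also among the 10 largest higher changes in mca4 than in mmca on day 20, a rank that does not show whether mmca shared the others. T and NK cell genes had a median change of 0.23 in mca4, -2.49 in the fibrosarcoma that arose after irradiation, -1.76 in nfsa, -0.10 in nrs1 and 0.11 in mmca. Mgarp, Adm, Car9, Cxcl3, Myl2, F5, Gbp8 and Klra3 kept their call with the wider spread, with which 3831 genes differed.

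**Figure D5:**
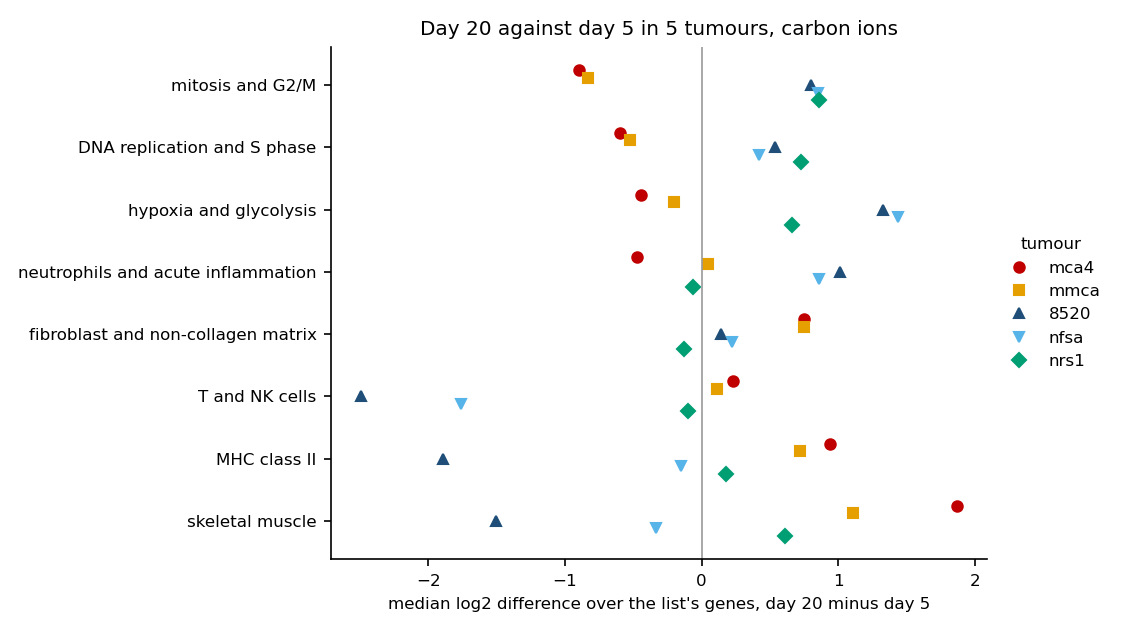
Median log2 change from day 5 to day 20 over the genes of 8 lists in mca4 and in the 4 other tumours. The mitosis and hypoxia medians of mca4 and mmca lay below 0 and those of the other 3 tumours above 0, and the mca4 T and NK cell median was close to that of mmca and above those of both fibrosarcomas.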

How the data were processed

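RNA of tumour tissue was extracted with ISOGEN and RNeasy, labelled with Cy5 and hybridised to CodeLink 1-colour arrays, per the labels. The authors deposited 1 intensity per probe and array, on a linear scale with array medians between 1.035 and 1.073 in the carbon-ion experiment. Software, background method, normalization and scan settings are not given in the sources used here. Depth has no meaning for arrays, and their number, 2 a group, limits the precision.

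Intensities under 0.0747 (the 5th percentile of positive values), 1831 values at or below 0 among them, were set to that floor before log2 was taken, and missing values were not filled in. The array has 36227 probes, of which 21615 had 1 gene symbol in the platform annotation, 681 several and 13931 none, and 21487 of the symbols matched RefSeq (GRCm38.p6). Probes with values on at least 90% of the arrays and a mean above the 20th percentile were kept, and the brightest probe stood for its gene (15265 genes). limma 3.58.1 in R 4.3.3 was fitted to the 40 carbon-ion arrays in 20 groups (20 residual degrees of freedom), with a mean-variance trend, and p-values were adjusted after Benjamini and Hochberg over all genes. The fit was tested on simulated arrays with independent noise, without the deviations shared by arrays of 1 replicate number. In the 4 comparisons within mca4, true log2 changes of 0.5 were called in the right direction for 50 to 52% of genes. For changes of 1 that share was 90 to 94%. In the 4 tests between tumours the shares were 24 to 38% and 74 to 96%. For each comparison, each of these sizes of change was given to only 50 of 15265 genes, far fewer than were called in the data. The adjusted threshold depends on how many genes change, so these shares hold for that setting only. The share called where as many genes change as in these data was not tested. Plots were made in Python 3.11.15 with matplotlib 3.10.9.

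The comparisons, the 36 gene lists (935 of 1135 genes tested) and the genes named were chosen with earlier results of these data known. Named were the 15 largest rises and falls of a comparison among called genes whose groups did not overlap, members of the lists, Cdkn1a, Mdm2, Ccng1, Trp53inp1, Mki67 and Top2a, and for each test between tumours the 10 largest differences each way; genes of little-known function were passed over. As alternatives, dim probes were kept, every probe was tested, values were quantile-normalized, and the fit was run with a higher floor, no trend, array weights, all arrays of the series, only the arrays of the tumours compared, a replicate block and each mca4 array left out in turn. The gamma-ray arrays of mca4 entered only the fit on all arrays.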

Additional observations from a re-analysis of the deposited data

Results flagged for a closer look

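Differences between tumours in the response, each by limma's test of the difference itself with Benjamini-Hochberg adjustment, were picked out for a closer look. The change from unirradiated differed between mca4 and mmca for 1490 genes on day 3, 1117 on day 5 and 1415 on day 20, and the change from day 5 to day 20 differed between mca4 and the mean of 4 other tumours for 6560 genes.

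On day 3 mca4 had the higher change of Cd8a (2.62, adjusted p = 5.12e-12), Batf2 (2.40), Gbp6 (1.70) and H2-Ab1 (2.17), a T cell co-receptor, a pair of interferon-induced genes and an antigen-presenting molecule, and the lower change of the fast muscle genes Pvalb (-3.62) and Tnnt3 (-2.77). On day 5 the change of the granzyme Gzma was higher (1.74) and that of lactotransferrin Ltf lower (-1.59). On day 20 the slow muscle genes Myl2 (4.49) and Tnni1 (4.15) had the higher change and Gzmf (-3.03) and S100a9 (-1.92) the lower.

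From day 5 to day 20, mca4 differed upward from the mean of the 4 other tumours in Myl2 (4.97), F5 (3.90), Gbp8 (3.01) and Klra3 (2.83), and downward in Mgarp (-3.76), Cxcl3 (-3.18), Adm (-3.08) and Car9 (-2.82). That mean includes mmca, and only Myl2 of these genes was also among the 10 largest differences from mmca on day 20 in either direction. Such a rank does not show whether mmca shared the other changes. The median of the hypoxia list, which holds Adm and Car9, was -0.44 in mca4, -0.20 in mmca and 0.66 to 1.44 in the other 3 tumours. F5 rose by 5.17 in mca4, more than its difference of 3.90, so the mean of the 4 other tumours rose as well. The 20 differences given in this section pass with the carbon-ion spread. With the spread of all arrays of the series 12 of 19 that could be fitted pass, and Pvalb, Tnnt3, H2-Ab1, Gzma, Ltf, Gzmf and S100a9 do not.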

How the results depend on the processing

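The number of genes called stayed within 1.5 times of the reported one in all 8 comparisons under quantile normalization, without the filter on dim probes, with every probe, with a higher floor, without the trend, with array weights and with the compared tumours alone. With all arrays of the series it was 2599 on day 3 and 2006 from day 5 to day 20, 38, 21 and 37 for the differences from mmca on days 3, 5 and 20, and 3831 for the difference from the other tumours. That fit had a larger spread and fewer genes tested (12962 against 15265), and 605 of 1331 calls of the named genes were lost in it. The main fit did not use the replicate numbers as a block. Deviations of arrays with the same number were weakly correlated between mca4 groups (15 pairs, r from 0.0503 to 0.234, 10 above 0.1). Arrays of 1 number thus shared some deviation. That all 12 of 12 mca4 arrays were closer to their own number restates these positive correlations, since the 2 deviations of a group mirror each other. With the replicate block more genes were called in all 8 comparisons. The count was 1750 for the day 5 difference from mmca and within 1.5 times in the other 7. Leaving out 1 mca4 array gave 3862 to 5425 genes on day 3, 6595 to 8060 on day 5, 8807 to 10016 on day 20 and 3808 to 4833 from day 5 to day 20. It gave 1051 to 1573, 708 to 1197 and 941 to 1731 for the differences from mmca, the lowest without unirradiated replicate 1, unirradiated replicate 2 and day 20 replicate 1, and 5394 to 6566 for the other tumours.

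Of 3744 list medians under an alternative, 115 changed sign, 92 of them with at least 1 of the 2 values within the spread between replicates. The other 23 follow, and the cause was not tested. For day 3 these were adipocytes (-0.07 to 0.19 without 1 array, the lowest without unirradiated replicate 1). For day 5 they were collagen chains (-0.11 with every probe, and -0.09 to 0.19 without 1 array, the lowest without day 5 replicate 1), peripheral nerve (0.13 without the dim filter) and the BCL2 family (-0.06 to 0.05 without 1 array, with 0.04 without unirradiated replicate 1 and 0.05 without day 5 replicate 2). For day 20 they were mast cells (0.05 with all arrays, and -0.14 to 0.05 without 1 array, the highest without unirradiated replicate 1). From day 5 to day 20 the median of B and plasma cells became 0.11 (quantile), 0.20 (no dim filter), 0.41 (every probe), 0.20 (all arrays), 0.07 (without day 5 replicate 1) and 0.12 (without day 20 replicate 1), with -0.02 without day 20 replicate 2. In that interval mast cells became -0.08 to 0 (without 1 array, the lowest without day 5 replicate 1), peripheral nerve -0.13 (no dim filter) and -0.07 to 0.32 (without day 20 replicate 2 and replicate 1), chemokines -0.05 (all arrays) and -0.10 (without day 20 replicate 1) and the Wnt pathway -0.03 (without day 20 replicate 2). In the difference from mmca, peripheral nerve became -0.07 on day 3 and -0.20 on day 5 with all arrays, and luminal genes -0.07 on day 3 after quantile normalization. Intensities close to the highest on the arrays limit what can be said of Ltf, H2-Ab1 and Lyz2 on day 20.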

Other observations

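On day 20, 26.7% of all genes rose and 38.4% fell, the background for the lists named next. Growth factor and Wnt genes moved in both directions. Wnt4, a ligand of mammary duct growth, was read at 0.332 and 0.288 before, 1.06 and 0.988 on day 3, 2.47 and 2.53 on day 5 and 3.42 and 3.44 on day 20, and rose by 3.47 by day 20. Its other probe changed far less, by 0.14, 0.43 and 1.23 on the 3 days. Tested separately, only 1 of the 2 Wnt4 probes passed on days 3 and 5, and both did on day 20. Lef1, a transcription factor at the end of the Wnt pathway, went from 18.4 and 18.2 to 5.78 and 5.85 (-1.65, and -0.66 for its other probe). Of 34 genes of the pathway, 13 rose and 11 fell. The neuregulin receptor gene Erbb3 fell to 48.0 and 40.5 on day 20 from 126 and 129, and the ligand gene Bmp7 from 30.4 and 26.1 to 6.02 and 5.32, while Fst, the activin-binding follistatin, rose from 1.81 and 1.91 to 6.57 and 6.04 on day 5. Of 31 TGF-beta and BMP genes, 15 rose and 6 fell on day 20. Of 11 ErbB genes, 2 rose and 5 fell (1 and 4 of 10 with the wider spread). Myc and Nr4a1, early growth-response genes, fell by day 20 (-1.60 and -2.05), within a list of immediate early genes of which 7 of 24 rose and 10 fell, shares close to those of all genes. Tfrc, the transferrin receptor of growing cells, was read at 9.83 and 8.89 before, 4.28 and 3.63 on day 3 and 2.08 and 1.67 on day 20 (-2.33).

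The fat droplet gene Cidec rose from 12.1 and 14.02 to 71.5 and 64.1 on day 20 and lipoprotein lipase (Lpl) from 9.93 and 9.61 to 54.3 and 47.7, with 7 of 10 adipocyte genes higher and 2 lower (median 1.62; 5 and 1 of 8 with the wider spread), whereas the adipocyte hormone gene Adipoq was near the floor on all arrays. The Schwann cell genes Sox10 and S100b, which mammary tumours can also express, fell by day 20 (-0.80 and -1.26), and 6 of 11 nerve genes rose and 5 fell. The heme synthesis gene Alas2 of erythroid cells fell from 1.20 and 1.25 to 0.362 and 0.445. Mast cell genes (4 rose and 4 fell of 13) and genes of oxidative stress and iron (6 and 7 of 25) were split on day 20, the mast cell genes at 2 and 3 of 10 with the wider spread. In the BCL2 family, 5 rose and 5 fell of 13 (3 and 3 of 11 with the wider spread), with Bok, a pro-apoptotic member, at 10.1 and 9.85 before and 3.16 and 2.88 on day 20. Of 34 ribosomal protein genes 15 fell and none rose on day 20 by limma, of 42 respiratory chain genes 22 fell and 3 rose, and of 30 proteasome genes 9 fell and none rose (38.4% of all genes fell and 26.7% rose).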
